A study of Mus musculus with 18 samples.

Results

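The 53 genes described here encode the working parts of the lysosome. Of these, 36 are counted as hydrolases and hydrolase activators: 11 proteases, 13 enzymes of glycan breakdown, 5 sulfatases, and 7 lipid enzymes or activator proteins. *Hgsnat*, 1 of the 13 glycan enzymes, is an acetyltransferase and not a hydrolase, and all counts of hydrolases below include it. The rest are 6 proteins of the lysosomal membrane, progranulin, 8 subunits or accessory proteins of the proton pump (V-ATPase), and the transcription factors *Tfeb* and *Tfe3*. The 53 genes were chosen by symbol among the 51912 genes counted, by their known place in the lysosome and not by a threshold on a measured value. All 53 were among the 24495 genes tested, which had 10 or more read pairs summed over 18 libraries.

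Lysosomes are the acidic organelles in which cells take apart material from endocytosis and autophagy. The V-ATPase pumps protons into the lumen, and most soluble hydrolases travel there from the Golgi bound to mannose 6-phosphate receptors. TFEB and TFE3 bind E-box sequences in the promoters of many lysosomal genes and raise their transcription. Astrocytes use lysosomes to degrade synaptic debris, lipids and matrix glycans, and inherited loss of single enzymes of this group gives lysosomal storage disease of the brain.

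The study asked how ethanol changes the RNA of cultured astrocytes and the part of it that is bound to ribosomes. Cortices of newborn (PD0) male and female pups of a B6;FVB line hemizygous for the Tg(Aldh1l1-EGFP/Rpl10a)JD130Htz/J transgene were cultured for 14 d with 10% serum and grown for 6 d after passage, and the dishes then spent 24 h without serum before a further 24 h in serum-free medium with 50 mM ethanol or without it. All dishes, controls included, carry this transgene. Its *Aldh1l1* promoter drives a ribosomal protein fused to EGFP, so that pull-down with GFP antibodies (TRAP) gives ribosome-bound RNA of the cells that express it (IP fraction), while the input fraction is the RNA of the whole lysate. IP libraries came from 6 control and 6 ethanol dishes, and input libraries from 3 dishes of each treatment, which also gave an IP library (replicates 4 to 6). Cells of equal numbers of male and female pups were pooled, and nothing in the labels says that the dishes came from separate cultures. The p-values for ethanol within a fraction thus measure the spread between dishes. Those for IP against input and for the interaction come from all 18 libraries without a term for the dish. That fit takes the IP and input libraries of one dish as independent, and fits with the dish as a block are given as alternatives.

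Between 74239854 and 132810705 read pairs per library lay on genes, and the members took 1.84% to 1.90% of them in IP control, 1.94% to 2.03% in IP ethanol, 1.75% to 1.78% in input control and 1.84% to 1.87% in input ethanol libraries. Levels are given in CPM, which scale the read pairs of a gene to the pairs on all genes of its library after TMM scaling, which evens out differences in RNA composition. The astrocyte gene *Aldh1l1* was at 342 to 395 CPM in IP and 166.2 to 194 CPM in input libraries, and *Rpl10a*, whose own transcripts and those of the transgene were not separated, was at 233 to 259 CPM in IP and 336 to 369 CPM in input. Astrocyte markers were abundant in every library, and 8 of 9 were higher in IP than in input, *S100b* being lower. Of 13 microglial markers, summed at 33.2 to 40.0 CPM in IP and 144.1 to 164.4 CPM in input libraries, 12 were lower in IP. Endothelial markers summed to at most 12.4 CPM, with *Cldn5* at 0 reads. Not all other cell types were lower in IP. Of 7 neuronal markers 4 were higher and 1 lower in IP, and of 8 oligodendrocyte lineage markers 3 were higher and 4 lower. Their mean sums were 217.7 and 233.4 CPM in IP control, against 165.3 and 144.3 CPM in input control libraries.

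Per kilobase of exon, members were among the more abundant transcripts of these cultures. In the 6 IP control libraries their median was 34.1 CPM per kb, against 0.731 over all 24415 tested genes with a known length, and 31 of 53 lay at or above the 90th percentile of those genes. That set holds many weakly detected genes, since only 9734 of the 24495 genes tested had a mean of 10 CPM or more. The median per kb of those 9734 was not computed, so the gap mainly sets the members apart from weakly detected genes. *Psap*, the precursor of the saposins that present lipids to their hydrolases, stood first at 1242 ± 27.0 CPM per kb (SD, n = 6). The aspartic protease *Ctsd* followed at 713 ± 20.2, the cysteine protease *Ctsb* at 535 ± 15.4 and the membrane glycoprotein *Lamp1* at 498 ± 9.47 CPM per kb. These 4 genes made up 51.0% of the members' summed CPM in IP control and 46.5% in input control libraries. At the other end stood *Manba*, which encodes beta-mannosidase (5.40 CPM per kb), *Tfeb* (3.89 CPM per kb) and the protease *Ctsk* (0.0969 CPM per kb). *Ctsk*, known from bone-resorbing osteoclasts, reached only 0.0493 to 0.230 CPM in the IP libraries, so its fold changes rest on few reads.

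In input control libraries *Psap* and *Ctsd* kept the first places, and *Lamp1* (486 CPM per kb) stood above *Ctsb* (396 CPM per kb). In IP control the ranges of the 6 libraries of neighbours overlapped for 27 of 52 neighbouring pairs, so ranks within such pairs cannot be told apart. By role, the median was 75.6 CPM per kb for proteases, 67.1 for lipid enzymes and activators, 45.4 for membrane proteins, 36.5 for the V-ATPase, 18.4 for glycan enzymes and 15.5 for sulfatases. With the length of the longest transcript in place of all exons 39 of 53 members stayed within 3 ranks, and in input control libraries 48 did.

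**Figure D1:**
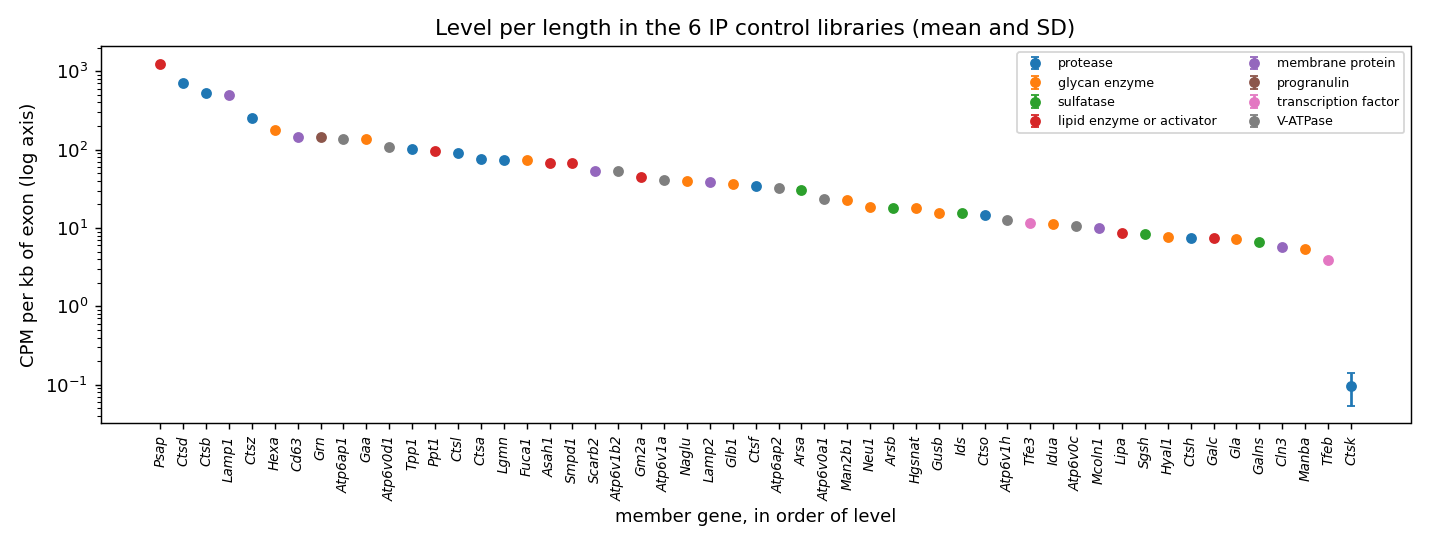
Level per length of the 53 members in the 6 IP control libraries. Each point is the mean CPM per kilobase of exon on a log axis, with the SD as a bar, coloured by role. *Psap* stands highest at 1242 CPM per kb and *Ctsk* far below the others at 0.0969.

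Most lysosomal hydrolases were higher with ethanol in the ribosome-bound RNA, by small amounts. Of the 53 members, 29 were higher in IP ethanol than in IP control libraries, 1 was lower (*Cd63*) and 23 did not pass the test (edgeR's quasi-likelihood test with Benjamini-Hochberg adjustment over 24495 genes, threshold 0.05). Of all genes tested, 21.4% passed, 11.9% upward and 9.48% downward. Calls are more frequent among abundant genes: at a mean level of 10 CPM or more, 41.6% passed, 23.7% upward and 17.9% downward, against 54.7% of the members upward. The median log2 fold change of the members was 0.085, beside 0.005 for all genes and 0.013 for those with at least 10 CPM. No member rose by more than 1.19-fold, and none passed a test against a fold change of 1.2. Bulk RNA cannot tell more RNA per cell from more cells that hold it.

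Of the hydrolases and activators 23 of 36 rose and none fell, with a median log2 fold change of 0.097. The largest change was in *Lipa*, the acid lipase that splits cholesteryl esters and triglycerides (chromosome 19, GRCm38, 34492318 to 34527474, minus strand). Its CPM had a lowest, median and highest value of 56.5, 58.8 and 59.7 in IP control and 68.1, 69.2 and 71.5 in IP ethanol libraries. In input it was at 89.9, 82.6 and 91.4 CPM in the control and 100.1, 98.7 and 99.9 CPM in the ethanol libraries. Every ethanol library was above every control library in both fractions. *Lipa* rose by a log2 fold change of 0.255 ± 0.027 (SE, edgeR adjusted p = 2.43e-11) in IP and 0.175 ± 0.027 (adjusted p = 3.4e-09) in input.

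*Arsa*, the sulfatase that degrades myelin sulfatide (chromosome 15, 89472476 to 89477425, minus strand), rose in both fractions. Of the 5 sulfatases 3 rose in IP and 2 in input, beside 11.9% and 7.21% of all genes (23.7% and 15.4% at 10 CPM or more). *Arsa* was at 109, 113 and 121 CPM (lowest, median, highest) in IP control and 126, 132 and 146.6 CPM in IP ethanol libraries. The input values were 91.9, 93.1 and 94.6 CPM in control and 108, 114 and 111 CPM in ethanol libraries. The groups did not overlap in either fraction. The log2 fold change was 0.25 ± 0.029 (edgeR adjusted p = 1.95e-09) in IP and 0.25 ± 0.026 (adjusted p = 5.83e-19) in input. Other genes overlap 18.8% of its exon length, and pairs in such stretches were set aside by the counting.

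Of the 13 glycan enzymes 9 passed upward in IP (69.2%) and 7 in input (53.8%), and all 13 had a positive log2 fold change in each fraction. The shares over all genes were 11.9% and 7.21% (23.7% and 15.4% at 10 CPM or more). *Glb1*, the beta-galactosidase whose activity is used as a senescence stain, was at 108, 110 and 112 CPM in IP control and 125, 128 and 130 CPM in IP ethanol libraries (lowest, median, highest). Its input values were 106, 113 and 113 CPM in control and 127, 126 and 126 CPM in ethanol libraries. All ethanol libraries lay above all control libraries of the same fraction. The log2 fold change of *Glb1* was 0.22 ± 0.024 (edgeR adjusted p = 6.73e-11) in IP and 0.18 ± 0.025 (adjusted p = 5.35e-11) in input.

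*Manba* was at 36.7, 37.6 and 38.6 CPM in IP control and 41.5, 44.3 and 44.9 CPM in IP ethanol libraries. In input it was at 40.4, 37.9 and 38.9 CPM in control and 43.4, 43.3 and 45.4 CPM in ethanol libraries. Its groups were separate in both fractions, with log2 fold changes of 0.23 ± 0.030 (edgeR adjusted p = 2.39e-08) in IP and 0.17 ± 0.036 (adjusted p = 5.49e-05) in input. The lysosomal alpha-mannosidase *Man2b1* had 177, 184 and 189 CPM in IP control and 201, 205 and 216 CPM in IP ethanol libraries. The input control libraries were tightly grouped at 179, 179 and 179 CPM, below the input ethanol libraries at 201, 201 and 209 CPM. *Man2b1* rose by 0.18 on the log2 scale in each fraction (edgeR adjusted p = 1.38e-08 in IP, and 6.15e-13 for the input fraction).

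*Idua*, which removes iduronic acid from heparan and dermatan sulfate, was at 45.1, 46.8 and 48.2 CPM in IP control and 49.6, 53.8 and 57.0 CPM in IP ethanol libraries. Its input values were 45.5, 43.7 and 44.7 CPM in control and 49.0, 49.3 and 50.0 CPM in ethanol libraries, again without overlap. *Idua* rose by 0.20 ± 0.030 in IP (edgeR adjusted p = 3.37e-07) and 0.14 ± 0.034 in input (adjusted p = 0.000486) on the log2 scale. Other enzymes of the glycosaminoglycan pathways moved with it in IP, namely *Sgsh* (0.17), *Hgsnat* (0.16), *Hyal1* (0.13) and *Arsb* (0.11), while *Gusb* (0.037), *Ids* (0.030), *Naglu* (0.045) and *Galns* (-0.025) did not pass, all as log2 fold changes. The remaining glycan enzymes that passed in IP were *Gaa*, the acid glucosidase of glycogen (0.14), *Hexa* (0.089) and *Fuca1* (0.077), and those that did not were *Neu1* (0.023) and *Gla* (0.009).

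Among the proteases, 6 of 11 passed upward in IP (54.5%) and 5 in input (45.5%). The shares over all genes were 11.9% and 7.21% (23.7% and 15.4% at 10 CPM or more). *Lgmn*, the asparaginyl endopeptidase that also processes cathepsins, was at 170, 173 and 176 CPM in IP control and 189, 196 and 201 CPM in IP ethanol libraries. In input it was at 167.3, 169 and 171 CPM in control and 192, 187 and 188 CPM in ethanol libraries, with no overlap between the treatments in either fraction. The log2 fold change of *Lgmn* was 0.19 ± 0.023 in IP (edgeR adjusted p = 3.26e-09) and 0.16 ± 0.023 in input (adjusted p = 1.05e-09). *Ctsh*, an aminopeptidase, had the largest protease change in input, with 35.0, 33.8 and 33.7 CPM in control and 41.4, 36.4 and 39.3 CPM in ethanol libraries (log2 fold change 0.19 ± 0.038, edgeR adjusted p = 1.7e-05). In IP it had 33.1, 33.8 and 35.7 CPM in control and 34.5, 36.5 and 38.3 CPM in ethanol libraries, so the groups overlapped, with a log2 fold change of 0.11 ± 0.032 (edgeR adjusted p = 0.00842).

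The abundant proteases *Ctsb* and *Ctsd* had smaller log2 fold changes. *Ctsb* was at 3133, 3215 and 3411 CPM in IP control and 3223, 3426 and 3721 CPM in IP ethanol libraries, which overlapped. Its input values were 2393, 2343 and 2447 CPM in control and 2516, 2480 and 2540 CPM in ethanol libraries. *Ctsb* passed in both fractions (log2 fold change 0.097 in IP, edgeR adjusted p = 0.00253, and 0.065 in input, adjusted p = 0.0159), and lost the call in both once trends with GC content and gene length were removed (adjusted p = 0.259 and 0.0869). *Ctsd* was at 1609, 1668 and 1753 CPM in IP control and 1639, 1750 and 1822 CPM in IP ethanol libraries, with 1519, 1557 and 1536 CPM in input control and 1554, 1632 and 1609 CPM in input ethanol libraries. *Ctsd* did not pass in either fraction (log2 fold change 0.063 in IP, edgeR adjusted p = 0.0523, and 0.052 in input, adjusted p = 0.0848), but passed as higher in both with those trends removed (adjusted p = 0.00434 and 0.0324). *Ctsl* (0.14), *Ctsf* (0.13) and *Ctso* (0.090) passed in IP, whereas *Ctsz* (0.043), *Tpp1* (0.029), *Ctsa* (0.001) and the hardly detected *Ctsk* did not.

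Of the lipid enzymes and activators, the same 5 of 7 passed upward in IP and in input, beside 11.9% and 7.21% of all genes (23.7% and 15.4% at 10 CPM or more). *Psap* was at 3292, 3417 and 3489 CPM in IP control and 3619, 3772 and 3916 CPM in IP ethanol libraries. In input it was at 2757, 2774 and 2831 CPM in control and 2989, 3011 and 3030 CPM in ethanol libraries, and neither fraction showed overlap. *Psap* rose by 0.15 ± 0.022 in IP (edgeR adjusted p = 3.03e-07) and 0.11 ± 0.021 in input (adjusted p = 8.77e-06) on the log2 scale. *Asah1*, the acid ceramidase, was at 225, 232 and 239 CPM in IP control and 236, 242 and 254 CPM in IP ethanol libraries, and at 287, 273 and 280 CPM in input control and 295, 293 and 300 CPM in input ethanol libraries. Its log2 fold changes of 0.085 in IP (edgeR adjusted p = 0.00584) and 0.076 in the other fraction (adjusted p = 0.00927) were among the smallest that passed. The palmitoyl-protein thioesterase *Ppt1* (0.11) and the ganglioside activator *Gm2a* (0.097) passed in IP too, while the sphingomyelinase *Smpd1* (-0.051) and the galactosylceramidase *Galc* (-0.024) did not.

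**Figure D2:**
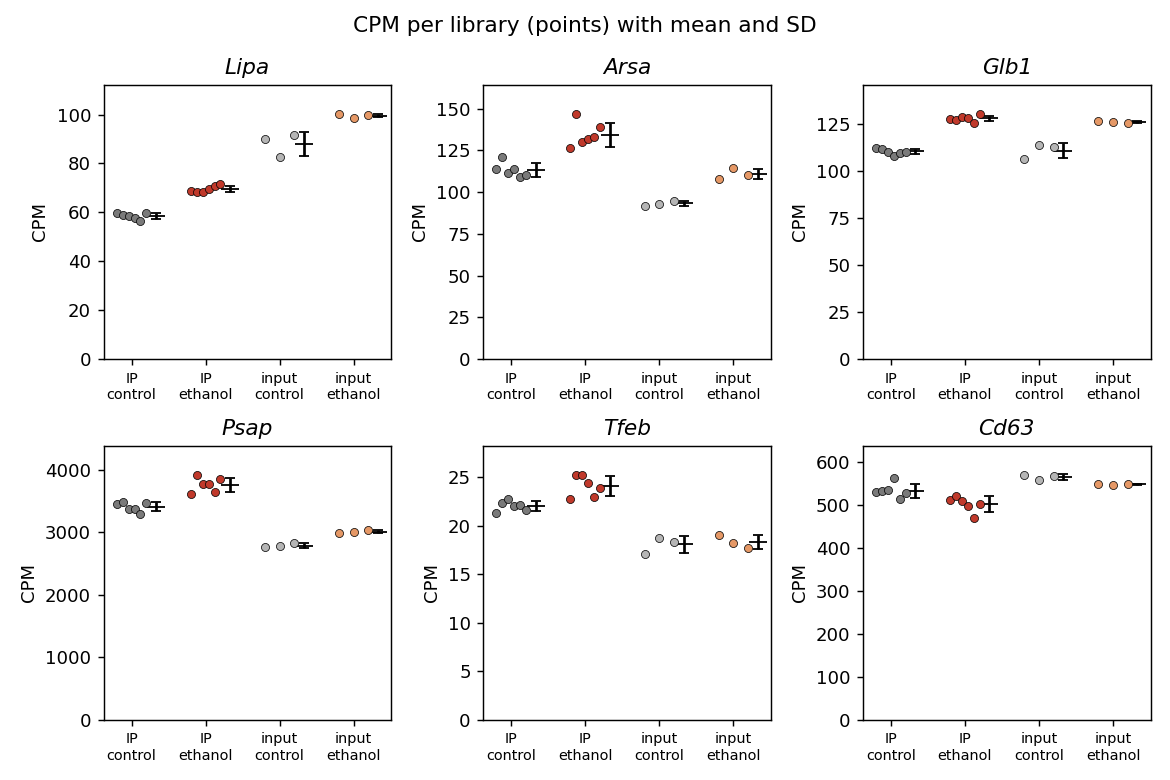
CPM in each of the 18 libraries for *Lipa*, *Arsa*, *Glb1*, *Psap*, *Tfeb* and *Cd63*, with the mean and SD of each group of 6 IP or 3 input libraries beside the points. For *Lipa*, *Arsa*, *Glb1* and *Psap* the ethanol libraries lie above the control libraries in both fractions, for *Tfeb* in IP, and *Cd63* has overlapping IP groups with the ethanol libraries lower on average.

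Of the 6 membrane proteins 2 rose (33.3%), 1 fell and 3 did not pass in IP. In that fraction 11.9% of all genes rose and 9.48% fell, and at 10 CPM or more 23.7% and 17.9%. With only 6 genes, these counts are not read as a result about the class. *Scarb2*, an abundant glycoprotein of the lysosomal membrane, rose by 0.16 ± 0.022 in IP (edgeR adjusted p = 5.68e-08) and 0.12 ± 0.023 in input (adjusted p = 5.62e-06) on the log2 scale. *Lamp2*, which takes part in autophagosome fusion and chaperone-mediated autophagy, rose by 0.14 ± 0.023 (adjusted p = 2.16e-06) and 0.15 ± 0.023 (adjusted p = 7.07e-10) in the same test. Its relative *Lamp1* was at 1297, 1328 and 1376 CPM in IP control and 1318, 1359 and 1404 CPM in IP ethanol libraries, and at 1294, 1291 and 1314 CPM in input control and 1309, 1300 and 1320 CPM in input ethanol libraries. The *Lamp1* groups overlapped in both fractions, and its log2 fold changes of 0.035 and 0.007 did not pass (in IP it passed with GC and length trends removed, adjusted p = 0.0301). *Cln3* (0.094) and the calcium channel *Mcoln1* (-0.001) did not pass in IP either.

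*Cd63*, a tetraspanin of late endosomes and exosomes, was the member that fell. It was at 514, 531 and 563 CPM in IP control and 469, 506 and 521 CPM in IP ethanol libraries, with overlap. Its input values were 570, 558 and 567.6 CPM in control and 548, 547 and 549 CPM in ethanol libraries, all lower with ethanol. *Cd63* fell by 0.080 ± 0.024 on the log2 scale in IP (edgeR adjusted p = 0.01), and its input log2 fold change of -0.048 ± 0.022 did not pass (adjusted p = 0.147). In IP replicates 1 to 3 alone the call was lost (log2 fold change -0.045, adjusted p = 0.468). *Grn*, the progranulin gene, whose product is cleaved to granulins in the lysosome, rose in IP (0.085 ± 0.023, adjusted p = 0.00468) and did not pass in input (0.037 ± 0.022, adjusted p = 0.322).

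Both transcription factors passed upward in IP. *Tfeb* was at 21.3, 22.1 and 22.8 CPM in IP control and 22.8, 24.1 and 25.2 CPM in IP ethanol libraries, all ethanol libraries being just above all controls. In input it was at 17.1, 18.8 and 18.4 CPM in control and 19.1, 18.3 and 17.7 CPM in ethanol libraries, with full overlap. *Tfeb* rose by 0.13 ± 0.036 in IP (edgeR adjusted p = 0.00321), and its log2 fold change in input was 0.016 ± 0.051 (adjusted p = 0.909). *Tfe3* had 104, 107 and 110 CPM in IP control and 109, 113 and 118 CPM in IP ethanol libraries, and 93.9, 98.3 and 95.4 CPM in input control and 102, 96.8 and 99.2 CPM in input ethanol libraries. *Tfe3* rose by 0.085 ± 0.025 in IP (adjusted p = 0.00856), with overlapping groups, and did not pass in input (0.049 ± 0.026, adjusted p = 0.241). Neither call was kept once the trends with GC content and gene length were removed (adjusted p = 0.13 for *Tfeb* and 0.277 for *Tfe3*), and that of *Tfe3* was also lost without IP control replicate 4 or IP ethanol replicate 3.

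**Figure D3:**
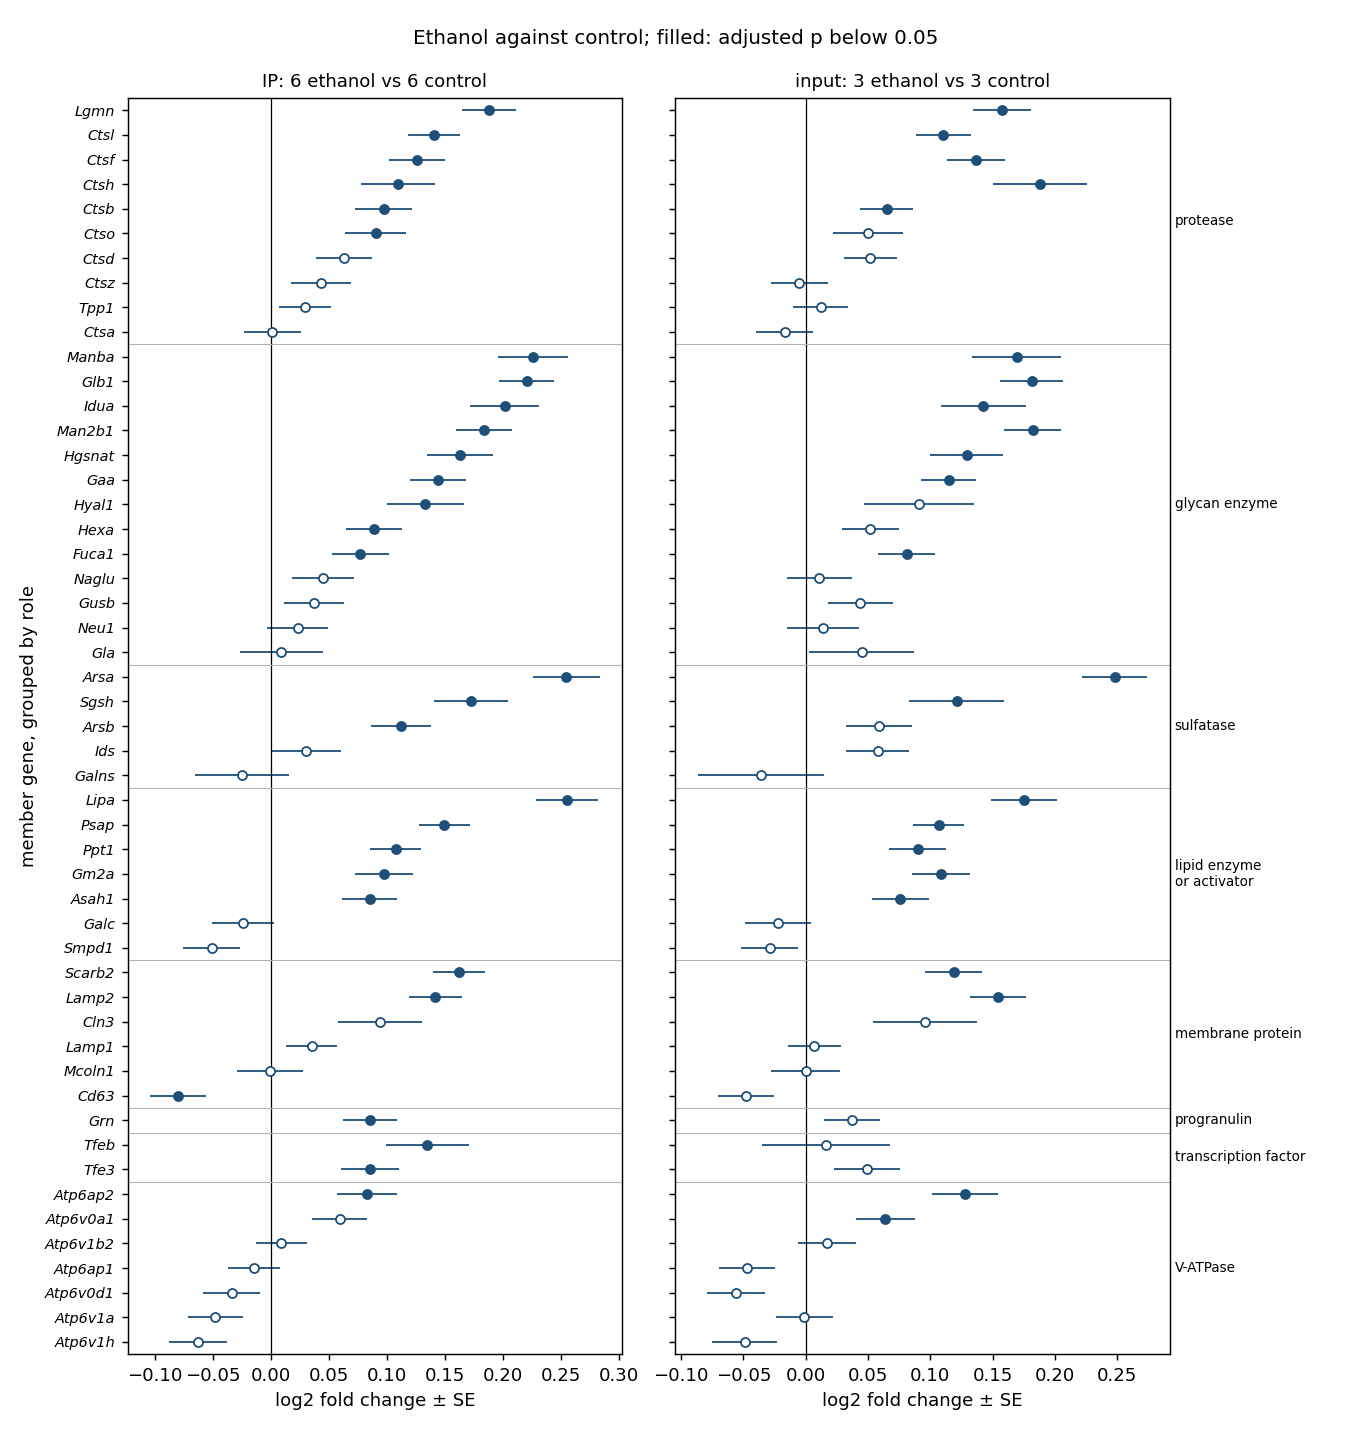
Log2 fold change of ethanol against control with its SE for 51 members, in IP (left) and in input (right), grouped by role and ordered by the IP value. Filled points have an adjusted p below 0.05. *Ctsk*, with few reads, and *Atp6v0c*, with a wide SE, were left off to keep the axis readable. The filled points lie mostly among the enzymes, and most V-ATPase points are open and near 0.

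In the input RNA, 23 members passed upward, none downward and 30 did not pass, while 15.0% of all genes passed, 7.21% upward and 7.78% downward. At a mean of 10 CPM or more 31.6% passed, 15.4% upward and 16.2% downward. The members' median log2 fold change was 0.058, beside -0.001 for all genes. Hydrolases and activators gave 19 of the 23 calls, and the others were *Lamp2*, *Scarb2*, *Atp6ap2* and *Atp6v0a1*.

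Of the members up in input 22 were also up in IP, which is 95.7% of the input calls and 75.9% of the IP calls. Over all genes, 1303 were up in both, 73.7% of the input and 44.8% of the IP calls. Part of this comparison rests on the same dishes. In IP replicates 1 to 3, whose dishes gave no input library, 20 members were up and 1 down, and 19 of these 20 were up in input. The 1 down was *Atp6v0c*, and *Cd63* did not pass there. For these replicates the overlap with input over all genes was not computed. The 19 of 20 thus has no such share beside it and is not read as particular to the members. In IP replicates 4 to 6, 19 were up and 2 down (*Cd63* and *Atp6v0c*). The control and ethanol groups did not overlap for 20 members in IP, all higher with ethanol, where 9.96% of all genes had no overlap (5.09% higher, 4.87% lower) and 20.8% of genes at 10 CPM or more (10.8% higher, 10.0% lower). In input they did not overlap for 30 members, 27 of them higher, where 27.1% of all genes had no overlap (14.0% higher, 13.1% lower) and 45.2% of genes at 10 CPM or more (23.7% higher, 21.5% lower). The 3 that were lower in every input ethanol library were *Cd63*, *Atp6ap1* and *Atp6v0d1*.

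A difference of the ethanol effect between the fractions was not detected for any member. The interaction of ethanol and fraction passed for 0 members and 0 of 24495 genes (edgeR's quasi-likelihood test with Benjamini-Hochberg adjustment), and an unadjusted p under 0.05 was reached by 1459 genes (5.96%) and by 0 members. The smallest unadjusted p among the members was that of *Tfeb*, at 0.0888. DESeq2 called 0 members and 4 genes (3 with a larger value in IP and 1 with a smaller one). In the 12 libraries of dishes with both fractions and with the dish as a block, 0 members and 102 genes passed, and these libraries were not fitted without the block. With the GC and length trends also removed *Lipa* passed (difference of IP and input log2 fold changes 0.156, adjusted p = 0.0337).

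Of the 8 V-ATPase members 1 rose in IP (12.5%) and 2 in input (25.0%). Of all genes 11.9% rose in IP and 7.21% in input, and of genes at 10 CPM or more 23.7% and 15.4%. The member up in IP was the accessory subunit *Atp6ap2*, also known as the prorenin receptor (log2 fold change 0.083 ± 0.026, edgeR adjusted p = 0.014), and it rose in input too (0.13 ± 0.027, adjusted p = 3.64e-05). The IP call was lost without any 1 of 5 libraries (adjusted p up to 0.0643). The membrane subunit *Atp6v0a1* passed in input (0.064, adjusted p = 0.0496) and not in IP (0.059, adjusted p = 0.0617), whereas with DESeq2 it passed in IP (adjusted p = 0.0373) and not in input (0.0844). The catalytic subunit *Atp6v1a* (-0.048), *Atp6v1b2* (0.009), *Atp6v1h* (-0.063), *Atp6v0d1* (-0.034) and *Atp6ap1* (-0.015) did not pass in IP. *Atp6v1h* was near the threshold (adjusted p = 0.0588) and passed as lower under 9 alternatives, with DESeq2 (adjusted p = 0.00955) among them, and *Atp6v1a* passed as lower with DESeq2 (0.0445) and with GC and length trends removed (0.0189). *Atp6v0c*, the proteolipid of the membrane rotor, varied widely among IP ethanol libraries (25.6 to 37.2 CPM, against 34.6 to 37.3 CPM in IP control) and is uncertain, since it has near-identical pseudogenes and reads that map to several places were not counted. The part of this in its values was not tested. The log2 fold change of *Atp6v0c* in IP was -0.19 ± 0.074 (edgeR adjusted p = 0.112), and with DESeq2 the adjusted p was 0.0384. With edgeR it passed as lower in IP replicates 1 to 3 alone (-0.25, adjusted p = 2.36e-05) and in replicates 4 to 6 alone (-0.135, adjusted p = 0.0192).

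Among 13 other V-ATPase genes, listed from general knowledge, 0 rose and 6 fell in IP, namely *Atp6v0a2*, *Atp6v1c1*, *Atp6v1d*, *Atp6v1e1*, *Atp6v1f* and *Atp6v1g1*, of which all but the first belong to the cytosolic part that hydrolyses ATP. Of the 13, 3 fell in input. Over all 21 V-ATPase genes, members included, 6 fell and 1 rose in IP, and 3 fell and 2 rose in input. Of all genes 9.48% fell in IP and 7.78% in input, and of genes at 10 CPM or more 17.9% and 16.2%. The largest declines were those of *Atp6v1d* (by 0.15 ± 0.025 on the log2 scale in IP, edgeR adjusted p = 5.66e-06) and *Atp6v1f* (by 0.14 ± 0.027, adjusted p = 5.65e-05). Over all 21 V-ATPase genes the median log2 fold change was -0.048 in IP and -0.045 in input, beside 0.097 and 0.079 for the 36 hydrolase and activator members.

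Hydrolases and membrane proteins outside the members were also mostly higher where they passed. The 23 genes listed as other hydrolases include *Sumf1*, which activates sulfatases and is not itself a hydrolase. Of the 23, 14 rose (*Sumf1* among them) and 2 fell in IP, *Dpp7* being among the latter, and 9 rose and 4 fell in input. *Arsg*, another sulfatase, rose most, by 0.35 ± 0.045 on the log2 scale in IP (edgeR adjusted p = 6.63e-09) and 0.27 ± 0.063 in input (adjusted p = 0.000256). Of 22 other membrane proteins tested, 11 rose and 0 fell in each fraction, with *Npc1*, the cholesterol exporter, at 0.23 ± 0.026 in IP (adjusted p = 1e-10) and at 0.20 ± 0.029 in input (adjusted p = 8.01e-10), and the sialic acid exporter *Slc17a5* at 0.26 ± 0.041 in input (adjusted p = 1.69e-08). *Cd68*, which is also a marker of microglia, rose by 0.23 ± 0.043 in IP (adjusted p = 2.82e-05). Over all 69 other lysosomal genes tested, 30 rose and 9 fell in IP, and 22 rose and 8 fell in input. Among all genes 11.9% rose and 9.48% fell in IP, and 7.21% rose and 7.78% fell in input. At 10 CPM or more 23.7% rose and 17.9% fell in IP, and 15.4% rose and 16.2% fell in input.

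**Figure D4:**
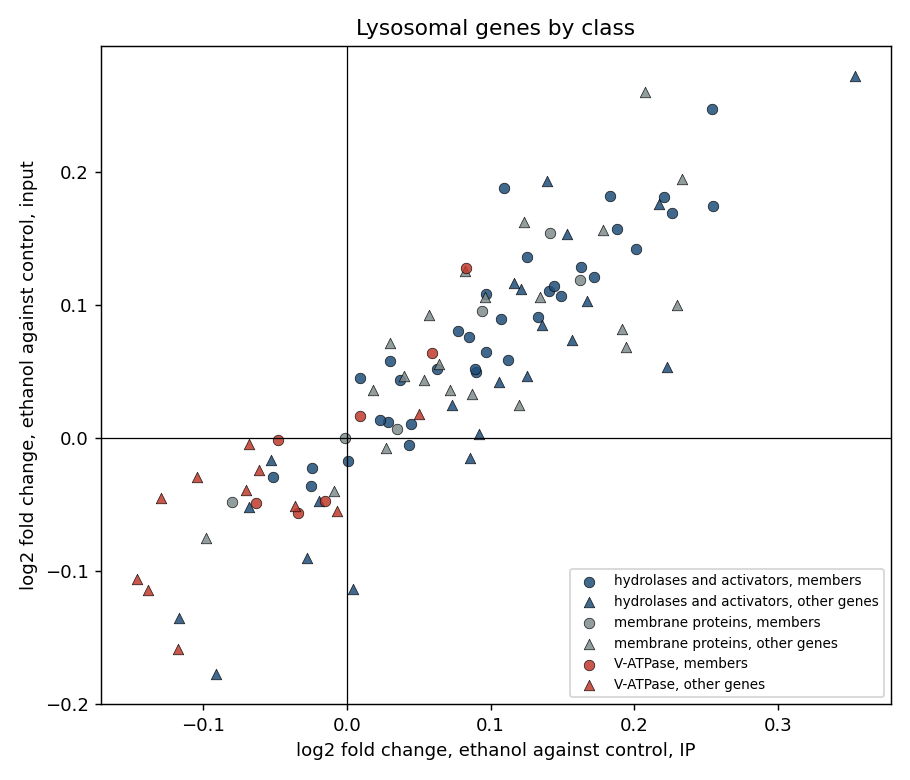
Log2 fold change of ethanol against control in IP (x axis) and in input (y axis) for 103 lysosomal genes with at least 1 CPM, members as circles and other lysosomal genes as triangles. Hydrolases and activators (blue) and membrane proteins (grey) lie mostly to the upper right, up to 0.35 in IP for *Arsg*, and V-ATPase genes (red) mostly to the lower left, down to -0.15 in IP for *Atp6v1d*. *Atp6v0c* was left off, and IP and input share dishes.

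Markers of the cell types in the culture moved with ethanol in part. The microglial markers summed to 34.5 to 37.4 CPM in IP control and 33.2 to 40.0 CPM in IP ethanol libraries, and to 144.8 to 149.9 CPM in input control and 144.1 to 164.4 CPM in input ethanol libraries, and 1 of 13 rose in IP and 2 of 13 in input. Fibroblast markers summed to 192 to 213 CPM in IP control and 189 to 217 CPM in IP ethanol libraries, with none of 6 called. Astrocyte markers summed to 1733 to 1811 CPM in IP control and 1857 to 1929 CPM in IP ethanol libraries, with 4 of 9 up and none down, and to 1103 to 1150 CPM and 1155 to 1183 CPM in the input libraries, with 4 up and 3 down. Oligodendrocyte lineage markers summed to 228 to 242 CPM in IP control and 204 to 224 CPM in IP ethanol libraries, with 2 of 8 up and 1 down (*Olig1*), and neuronal markers to 208 to 224 CPM and 200 to 217 CPM, with 0 of 7 up and 1 down. In input 3 oligodendrocyte lineage markers were up and 1 down, and 1 neuronal marker was up and 1 down. Of 5 endothelial markers tested, *Kdr* fell in both fractions (log2 fold change -0.40 in IP, edgeR adjusted p = 4.71e-06, and -0.51 in input, adjusted p = 0.000427). The part of these shifts in the members' values was not tested.

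The E-box bound by TFEB and TFE3 was common in the members' promoters. RefSeq promoters (GRCm38.p6, 250 bases before to 50 after a start) were found for 46 of 53 members, and not for *Atp6v1h*, *Atp6v1b2*, *Ctsh*, *Galns*, *Asah1*, *Hgsnat* and *Ctsb*. The core CACGTG, read on both strands, occurred in a promoter of 16 of the 46 (34.8%), against 8.1% of all 27025 genes in the table and 12.7% of 7583 protein-coding genes at 10 CPM or more. TCACGTG, which contains the core, occurred in 14 of 46 (30.4%), against 4.3% of all genes. The 52 other lysosomal genes with a promoter had the core in 10 (19.2%).

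The share with a match was not higher among the members that rose in IP. Of 25 members with a promoter that rose in IP, 7 held the core (28.0%): *Ctsf*, *Ctsl*, *Lgmn*, *Glb1*, *Gaa*, *Arsa* and *Sgsh*. Of the 21 that did not, 9 did (42.9%): *Ctsa*, *Ctsd*, *Gla*, *Naglu*, *Lamp1*, *Mcoln1*, *Cln3*, *Atp6v0d1* and *Atp6v1a*. In input the shares were 7 of 19 that rose (36.8%) and 9 of 27 that did not (33.3%). A match is a description of letters and does not show binding.

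The promoters of *Arsa* (chr15:89477375-89477674, minus strand) and *Glb1* (chr9:114400828-114401127, plus strand) are shown because these 2 genes had the largest increases in IP among members with TCACGTG, and that of *Atp6v1a* (chr16:44139210-44139509, minus strand) because it had the lowest log2 fold change among them. That of *Lamp1* (chr8:13158911-13159210, plus strand), picked after the matches were seen, holds 4 cores within its window and belongs to a gene that did not pass. The first of the 3 promoters of *Tfeb* (chr17:47736787-47737086, plus strand), the regulator itself, holds none, nor do the others. Sequences run 5′ to 3′ on the strand of the gene, with matched letters in capitals.
Arsa: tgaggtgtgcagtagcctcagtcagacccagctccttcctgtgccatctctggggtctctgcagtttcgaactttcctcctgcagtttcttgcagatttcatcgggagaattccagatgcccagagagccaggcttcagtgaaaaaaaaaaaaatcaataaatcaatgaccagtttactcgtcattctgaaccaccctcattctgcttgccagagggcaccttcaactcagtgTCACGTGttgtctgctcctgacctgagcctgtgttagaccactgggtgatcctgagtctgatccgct
Glb1: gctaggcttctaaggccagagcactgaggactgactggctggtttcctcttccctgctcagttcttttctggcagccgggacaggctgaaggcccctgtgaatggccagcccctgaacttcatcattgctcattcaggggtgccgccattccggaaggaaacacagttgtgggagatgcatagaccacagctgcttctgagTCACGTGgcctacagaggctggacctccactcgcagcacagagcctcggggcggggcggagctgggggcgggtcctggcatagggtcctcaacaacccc
Atp6v1a: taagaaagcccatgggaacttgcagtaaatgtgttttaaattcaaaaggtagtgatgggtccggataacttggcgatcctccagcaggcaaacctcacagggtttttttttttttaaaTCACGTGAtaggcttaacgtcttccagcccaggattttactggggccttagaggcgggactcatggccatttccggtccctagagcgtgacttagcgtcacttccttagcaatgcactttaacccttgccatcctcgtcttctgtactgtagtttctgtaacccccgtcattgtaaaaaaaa
Lamp1: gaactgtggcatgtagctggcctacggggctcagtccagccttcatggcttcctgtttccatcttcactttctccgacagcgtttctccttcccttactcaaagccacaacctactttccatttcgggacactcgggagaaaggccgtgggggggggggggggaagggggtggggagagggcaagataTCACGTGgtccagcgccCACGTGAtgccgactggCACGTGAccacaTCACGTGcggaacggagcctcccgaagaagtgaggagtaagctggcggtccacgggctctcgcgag
Tfeb: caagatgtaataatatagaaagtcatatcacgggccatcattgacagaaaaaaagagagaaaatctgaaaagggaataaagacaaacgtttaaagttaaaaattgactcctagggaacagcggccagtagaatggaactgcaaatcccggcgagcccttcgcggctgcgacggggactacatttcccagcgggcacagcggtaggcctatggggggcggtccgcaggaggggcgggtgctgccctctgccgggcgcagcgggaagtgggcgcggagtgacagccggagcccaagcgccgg
The core begins 16 bases before the start in *Arsa*, 48 bases before it in *Glb1* and 131 bases before it in *Atp6v1a*, and in *Lamp1* the 4 cores begin between 61 and 15 bases before it. With only the 250 bases before the start counted, the core was present in 15 of 46 members.

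Between the fractions the members split. In ribosome-bound RNA 22 members were higher and 15 lower than in input, and 16 did not pass (all 18 libraries, with a term for treatment). Of all genes 51.0% passed, 25.2% upward and 25.8% downward, and at 10 CPM or more 79.9% passed, 49.0% upward and 30.9% downward, so the members' share of calls was above that of all genes and below that of genes at such levels. The ranges of the fractions did not overlap for 17 members, 10 higher and 7 lower in IP, where 25.0% of all genes had no overlap (13.1% higher, 11.9% lower) and 47.0% of those at 10 CPM or more (29.9% higher, 17.1% lower). The split depends on scaling: when libraries were scaled by total counts 17 members were higher and 21 lower, and the median log2 fold change of all genes moved from -0.028 to -0.078. These values are relative levels within each fraction and give no absolute share of a transcript on ribosomes.

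*Ctsb* stood out on the higher side, at 3133 to 3721 CPM in the 12 IP and 2343 to 2540 CPM in the 6 input libraries (log2 fold change 0.44 ± 0.020, edgeR adjusted p = 1.23e-28). *Tfeb* followed with 21.3 to 25.2 CPM in IP and 17.1 to 19.1 CPM in input (0.34 ± 0.032, adjusted p = 2.97e-15). *Psap* had 3292 to 3916 CPM in IP and 2757 to 3030 CPM in input (0.31 ± 0.018, adjusted p = 1.61e-25). These 3 genes had no overlap between fractions, nor did *Hyal1*, with 27.5, 29.3 and 30.0 CPM in IP control, 30.6, 31.6 and 33.2 CPM in IP ethanol, 23.8, 24.4 and 23.6 CPM in input control and 23.8, 26.5 and 26.4 CPM in input ethanol libraries (0.29 ± 0.029, adjusted p = 1.11e-14). Other genes overlap 55.0% of the exon length of *Hyal1*. *Arsa* was higher in IP by 0.28 ± 0.023 (adjusted p = 1.41e-16), and its ranges overlapped, at 109 to 146.6 CPM and 91.9 to 114 CPM.

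The other members higher in IP had log2 fold changes of 0.28 (*Arsb*) down to 0.042 (*Lamp1* and *Scarb2*), and included *Cln3*, *Atp6v1h*, *Galc*, *Atp6v1b2*, *Ctsl*, *Tfe3*, *Ppt1*, *Gaa*, *Sgsh*, *Ctsd*, *Ctsf*, *Idua*, *Gm2a* and *Atp6v1a*. The call of *Idua* was lost with counts of one strand (log2 fold change 0.006, edgeR adjusted p = 0.904). Other genes overlap 6.3% of its exon length. With total counts *Idua* (0.039, adjusted p = 0.184), *Gm2a* (0.013, adjusted p = 0.618) and *Atp6v1a* (0.012, adjusted p = 0.639) did not pass. In the 12 libraries of dishes with both fractions, *Gm2a* and *Lamp1* no longer passed, either without a block (adjusted p = 0.105 and 0.296) or with the dish, a true pairing, as a block (0.104 and 0.294), and *Hexa* passed as lower in IP (0.00296 and 0.00148). *Ctsh* (0.045, lower in IP) and *Atp6v0c* (0.000329, higher in IP) passed in these libraries with the block and not without it.

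On the lower side *Lipa* was at 56.5 to 71.5 CPM in IP and 82.6 to 100.1 CPM in input libraries (log2 fold change -0.55 ± 0.022, edgeR adjusted p = 4.17e-35). *Ids*, the iduronate sulfatase, had 75.5, 78.2 and 83.0 CPM in IP control and 75.5, 79.8 and 87.1 CPM in IP ethanol libraries, with 116, 110 and 111 CPM in input control and 119, 118 and 115 CPM in input ethanol libraries (-0.53 ± 0.023, adjusted p = 3.65e-29). The beta-glucuronidase *Gusb* had 69.4, 70.7 and 72.0 CPM in IP control and 69.6, 72.0 and 75.5 CPM in IP ethanol libraries, with 94.6, 96.6 and 95.0 CPM in input control and 97.3, 99.4 and 98.98 CPM in input ethanol libraries (-0.44 ± 0.020, adjusted p = 2.27e-31). *Asah1* was at 225 to 254 CPM in IP and 273 to 300 CPM in input (-0.28 ± 0.019, adjusted p = 1.03e-21). None of these 4 genes had overlapping fractions.

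*Ctsk* had the largest ratio on the lowest counts, with 0.0493, 0.160 and 0.230 CPM in IP control and 0.0539, 0.0898 and 0.129 CPM in IP ethanol libraries against 0.559, 0.672 and 0.498 CPM in input control and 0.494, 0.498 and 0.586 CPM in input ethanol libraries (log2 fold change -2.22 ± 0.22, adjusted p = 2.2e-14). The remaining members lower in IP were *Gla*, *Ctsz*, *Atp6ap2*, *Hgsnat*, *Cd63*, *Galns*, *Ctsa*, *Mcoln1*, *Lamp2* and *Fuca1*, with log2 fold changes between -0.24 and -0.058. Microglial markers were lower in IP (median log2 fold change of 13 markers -2.48), as were *Ctss* (-2.66 ± 0.042), *Ctsc* (-1.32 ± 0.030) and *Cd68* (-1.05 ± 0.032), other lysosomal genes abundant in microglia. Fibroblast markers summed to 189 to 217 CPM in IP and 342 to 352 CPM in input, but the list split. Of the 6 tested 4 were lower in IP and 2 higher (*Col1a2* and *Lama1*). The part of either cell type in the members' values was not tested.

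**Figure D5:**
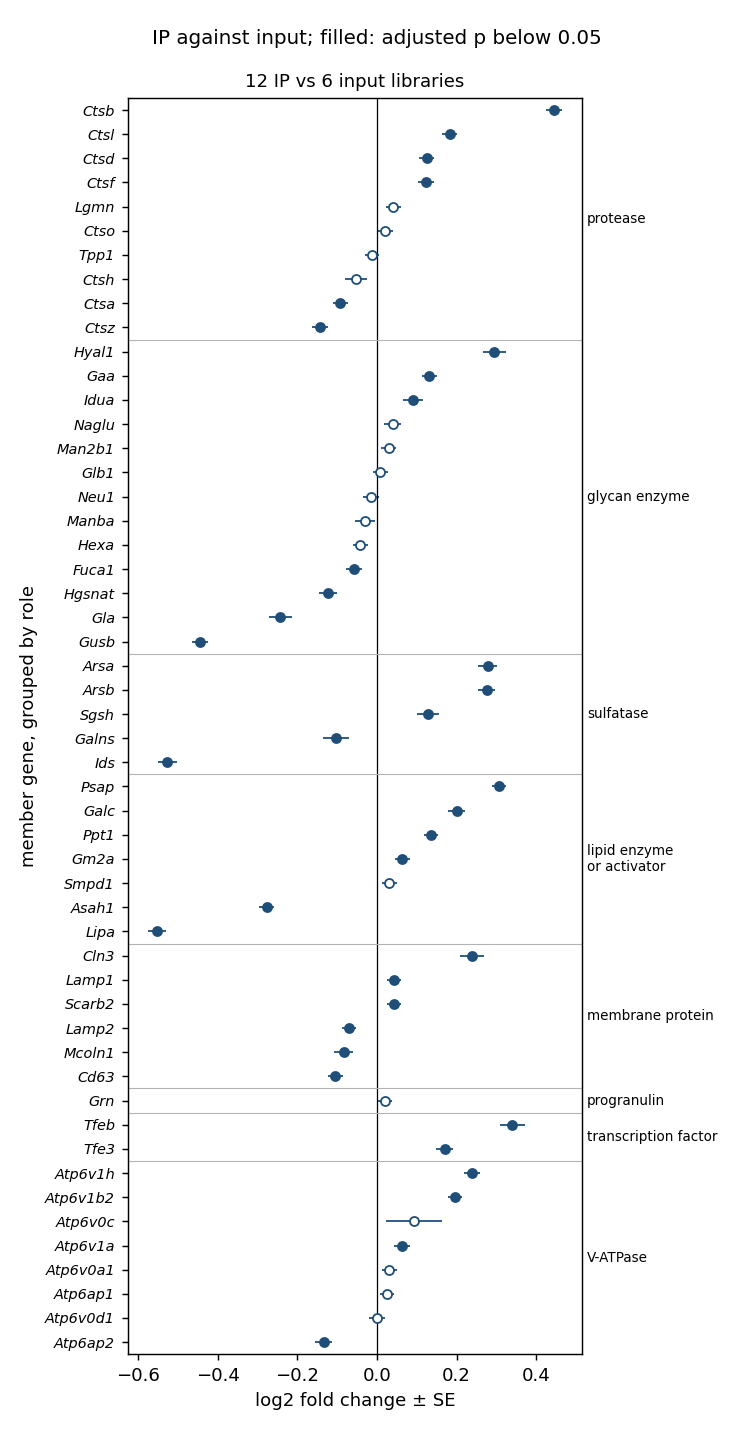
Log2 fold change of 12 IP against 6 input libraries with its SE for 52 members, grouped by role and ordered within each role. Filled points have an adjusted p below 0.05. *Ctsk*, at -2.22, lies outside the axis and was left off. *Ctsb* lies farthest to the right at 0.44 and *Lipa* farthest to the left at -0.55.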

How the data were processed

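Translating-ribosome (IP) and input RNA of 12 astrocyte dishes was measured in 18 libraries, made with a stranded total RNA kit with rRNA depletion and sequenced as read pairs. The authors used Trimmomatic for trimming and STAR for alignment to GRCm38 with Ensembl genes, and deposited raw counts of uniquely mapped pairs per gene without regard to strand, together with counts by strand for each library. Pairs mapped to several places made up 2.95% to 4.77%, and pairs on overlapping genes 5.37% to 5.66%, of a library and were not counted, so genes with near-identical copies or overlapping neighbours are undercounted. Versions of these tools are not given in the sources used here.

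Genes were kept with at least 10 pairs over 18 libraries. Counts were scaled by TMM and tested with edgeR 4.0.16 (robust quasi-likelihood) in R 4.3.3, within each fraction for ethanol, over all libraries for IP vs. input and for the interaction, with Benjamini-Hochberg adjustment and a threshold of 0.05. DESeq2 1.42.0, the study's method, was an alternative, as were other scalings and filters, counts of one strand, a fold threshold of 1.2, blocks, removal of GC and length trends, and leaving out each library. The script was tested on simulated data. Positions and lengths are from GENCODE M21 (GRCm38). No 2 libraries of a group were copies (for the closest pair, the chi-square of their counts per degree of freedom was 3.38). Depth was at least 74239854 pairs on genes in each library.

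IP and input libraries with one replicate number and treatment come from one dish (correlations of their deviations from the group means 0.022 to 0.147). The labels do not say whether a number shared by a control and an ethanol dish marks a pair. The members and lists were chosen with earlier results of these data known, and the counts among genes with at least 10 CPM were added after the data were seen. The genes given by library are, in each comparison, the members with the largest changes that passed (6 up and 4 down for ethanol, 5 each way for IP vs. input), *Tfeb*, *Tfe3*, *Lamp1* and the 3 with the highest level per length. Of the other lysosomal genes, the 3 largest changes each way that passed are named, and further ones were chosen after their values were seen. Lists were described by counts and medians only, and 1 gene of the other lysosomal list is not reported by name here.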

Additional observations from a re-analysis of the deposited data

Results flagged for a closer look

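Of 106 groups of 6 libraries (53 members in IP control and IP ethanol), 4 held a library set apart from the other 5 by Dixon's test, which flags about 1 group in 20 by chance. *Ctsb* was at 3411 CPM in IP control replicate 1, with the others at 3133 to 3233 CPM. *Hexa* was at 339 CPM in IP control replicate 5, below the others at 356 to 364 CPM. IP ethanol replicate 3 was high for *Smpd1*, at 225 CPM against 211 to 215 CPM, and for *Gm2a*, at 217 CPM against 193 to 199 CPM. Without IP ethanol replicate 3 *Smpd1* passed the test for ethanol in IP as lower (log2 fold change -0.072, edgeR adjusted p = 0.0252), and the calls of *Ctsb*, *Hexa* and *Gm2a* did not change without the library that stood apart.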

How the results depend on the processing

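Without 1 library at a time 27 to 32 members were up and 1 to 3 down in IP (29 and 1 with all), 19 to 25 up and 0 down in input, 20 to 24 up and 15 to 16 down between fractions, and 0 either way for the interaction. Of the 29 calls up in IP 26 were kept in every such fit. *Fuca1* was lost without IP control replicate 2 or 6 or IP ethanol replicate 3 or 6 (adjusted p at most 0.11), *Tfe3* without IP control replicate 4 or IP ethanol replicate 3 (at most 0.0581) and *Atp6ap2* without IP control replicate 1, 3 or 6 or IP ethanol replicate 2 or 6 (at most 0.0643). The members down in IP beside *Cd63* were *Atp6v1h* without IP control replicate 1, 3 or 4 or IP ethanol replicate 3 or 6 (adjusted p at most 0.0384), *Smpd1* without IP control replicate 2 or IP ethanol replicate 3 (at most 0.0395) and *Atp6v0c* without IP ethanol replicate 1 or 6 (at most 0.0176). In input 18 of 23 calls were kept, and *Ctsb*, *Fuca1*, *Sgsh*, *Asah1* and *Atp6v0a1* were lost without at least 1 library (adjusted p at most 0.361): *Ctsb* without input control replicate 4 or 5 or input ethanol replicate 6, *Fuca1* without input ethanol replicate 6, *Sgsh* without input control replicate 4 or input ethanol replicate 5, *Asah1* without input control replicate 5 or 6 or input ethanol replicate 6, and *Atp6v0a1* without input control replicate 4 or 5 or input ethanol replicate 4 or 6. The input call of *Atp6v0a1* was also lost with no filter, filterByExpr, one strand, trends removed or all 18 libraries (adjusted p at most 0.179). Calls gained were *Ctsd* (without IP control replicate 1 or IP ethanol replicate 1 or 5, or input ethanol replicate 4), *Cln3* (IP ethanol replicate 1 or 5), *Atp6v0a1* (IP ethanol replicate 1), *Hexa* and *Hyal1* (input ethanol replicate 4) and *Ids* (input control replicate 4). Between fractions *Lamp1* and *Scarb2* were lost without 7 and 10 of the 18 libraries in turn (adjusted p at most 0.133), and *Ctsh*, *Lgmn*, *Hexa* and *Naglu* were gained without at least 1. V-ATPase genes down numbered 5 to 9 in IP and 3 in input.

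The number down in IP was 4 with DESeq2, 3 without a filter, with the replicate block or with GC and length trends removed, and 2 with total counts, DESeq2 size factors, filterByExpr, counts of one strand, all 18 libraries in one fit or IP replicates 4 to 6, where 19 were up. In input it was 1 with the replicate block and 2 with trends removed. Against a fold change of 1.2, 0 members passed for ethanol in either direction and 0 V-ATPase genes fell, and between fractions 3 members were higher and 4 lower, with 1 V-ATPase gene higher and 1 lower. The interaction gave 1 member with the dish block and trends removed. With total counts the log2 fold change between fractions turned to -0.009 for *Lamp1* and *Scarb2* and to -0.051 for *Atp6v0d1*. The cause of these changes was not tested. Nothing in the labels says that control and ethanol dishes of one number form pairs. Their correlations were -0.103 to 0.224 in IP, with 3 of 12 libraries closest to their own number. IP and input libraries of one dish, a true pair, reached only 0.022 to 0.147, so such correlations cannot decide it. As a term, the replicate block gave 31 members up in IP and 23 in input. With the block *Atp6v0c* passed as lower in both fractions. It also called *Ctsd* and *Cln3* higher and *Atp6v1h* lower in IP, and changed no other call of a member for ethanol.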

Other observations

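The genes that tag and sort hydrolases for the lysosome moved in different directions with ethanol. The large mannose 6-phosphate receptor *Igf2r* rose by a log2 fold change of 0.17 ± 0.025 in IP (edgeR adjusted p = 4.07e-07) and 0.11 ± 0.023 in input (adjusted p = 4.47e-05), and the sorting receptor *Sort1*, which carries prosaposin and progranulin, rose by 0.21 ± 0.023 (adjusted p = 1.52e-10) and 0.15 ± 0.023 (adjusted p = 2.45e-09). The small mannose 6-phosphate receptor *M6pr* fell by 0.15 ± 0.023 in IP (adjusted p = 2.51e-07) and by 0.14 ± 0.023 in input (adjusted p = 5.79e-08) in the same test. Of all 9 sorting and tagging genes 4 rose and 1 fell in IP, and 2 rose and 1 fell in input. *Mitf*, a relative of *Tfeb*, rose in IP (0.15 ± 0.049, adjusted p = 0.0199), with a log2 fold change of 0.024 ± 0.072 in input that did not pass.

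*Atp6v0a2* stood out among the other V-ATPase genes. It fell with ethanol by 0.12 ± 0.024 in IP (edgeR adjusted p = 0.000108) and by 0.16 ± 0.026 in input (adjusted p = 4.98e-08), and was higher in IP than in input by 0.39 ± 0.020 (adjusted p = 9.27e-29) on the log2 scale, as were *Sort1* (0.51 ± 0.019, adjusted p = 2.64e-36) and *Naaa* (0.30 ± 0.021, adjusted p = 5.28e-21). *Dpp7*, a dipeptidase, fell by 0.18 ± 0.032 in input (adjusted p = 1.03e-06). *Tfec*, the other MiT factor, was at 0.120 to 0.342 CPM in IP and 0.638 to 1.17 CPM in input (log2 fold change -1.88 ± 0.17, adjusted p = 2.09e-15).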
